A study of Mus musculus with 2 samples.

Results

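Some absorptive cells of the mouse colon carried Slc10a2, Abca12 and Slc13a1, genes better known from the ileum, the skin and the kidney. Nuclei of this kind were picked from single-nucleus RNA libraries of the colon by 6 genes, and they numbered 836 of the 21034 nuclei kept: 526 of 12146 from Pink1 KO mice and 310 of 8888 from WT mice. A member nucleus had at least 2 UMIs (unique molecular identifiers, each counted as 1 RNA molecule) over Slc10a2, Abca12, Slc30a10, Slc13a1, Tmigd1 and Prkg2, from at least 2 of those genes. It also had at most 1 UMI over Slc37a2, Atp12a, Car4 and Aqp8, at most 2 over Gsdmc2, Gsdmc3 and Gsdmc4, Muc2 under 0.5% of its UMIs, and 0 UMIs over Col3a1, Myh11, Ptprc and Pecam1. These genes were chosen with the same nuclei in view, so their levels describe the members and are not a finding.

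The Pink1 KO library held colon nuclei of male C57BL/6 mice, 15 weeks old, that lack Pink1, the kinase that marks damaged mitochondria for removal by mitophagy. The WT library held colon nuclei of male wild-type littermates of the same strain and age. In both, nuclei of 3 mice were sorted and pooled into 1 library of 10x Genomics 3' tags, and the labels do not divide the colon into segments. The labels put the KO library in batch 2 and the WT library in batch 1, so genotype, library and batch cannot be told apart, no value has a replicate, and no test between genotypes was made. Intervals in brackets are exact 95% intervals and cover counting error only.

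Bile acids that reach the distal gut are taken up across the apical membrane by the sodium-coupled transporter Slc10a2 (ASBT) and leave the cell at its base through the paired transporter Slc51a and Slc51b, while the nuclear receptor Nr1h4 (FXR) senses them inside. This route is known above all from the ileum. Of the other genes used to choose members, Abca12 is a lipid transporter needed for the skin barrier, Slc30a10 a manganese exporter, Slc13a1 a sodium-sulfate cotransporter, Tmigd1 an adhesion molecule of the brush border, and Prkg2 the cGMP-dependent kinase that acts below guanylin and its receptor Gucy2c.

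The promoters of 4 genes are shown because their levels set the members apart (Slc10a2, Nr1h4) or differed between the libraries in members (Per3, Tef). Each window runs from 250 bases before to 50 bases after the RefSeq start on GRCm38.p6, on the gene's own strand, 5′ to 3′. Capitals mark the CDX site TTTATG in Slc10a2 (chr8:5105238-5105537, minus strand) and in Nr1h4 (chr10:89506609-89506908, minus strand), where it lies on the opposite strand. Capitals mark the D box TTATGTAA in Per3 (chr4:151044616-151044915, minus strand) and the E box CACGTG in Tef (chr15:81802423-81802722, plus strand).
Slc10a2: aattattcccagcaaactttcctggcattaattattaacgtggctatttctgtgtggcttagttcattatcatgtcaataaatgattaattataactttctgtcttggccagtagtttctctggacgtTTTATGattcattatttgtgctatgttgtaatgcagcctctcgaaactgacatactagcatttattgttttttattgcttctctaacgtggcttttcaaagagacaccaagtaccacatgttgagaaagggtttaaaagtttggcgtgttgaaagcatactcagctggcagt
Nr1h4: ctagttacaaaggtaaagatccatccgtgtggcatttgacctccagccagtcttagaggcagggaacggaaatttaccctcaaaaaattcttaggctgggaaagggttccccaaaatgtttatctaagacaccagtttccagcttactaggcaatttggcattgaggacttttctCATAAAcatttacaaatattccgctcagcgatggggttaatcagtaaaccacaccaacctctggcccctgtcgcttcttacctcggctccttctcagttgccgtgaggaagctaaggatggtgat
Per3: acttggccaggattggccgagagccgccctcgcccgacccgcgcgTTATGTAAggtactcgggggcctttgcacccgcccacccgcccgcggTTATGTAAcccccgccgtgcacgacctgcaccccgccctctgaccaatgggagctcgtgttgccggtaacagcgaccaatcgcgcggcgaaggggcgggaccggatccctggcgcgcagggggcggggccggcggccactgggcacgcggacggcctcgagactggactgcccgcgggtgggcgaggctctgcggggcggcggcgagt
Tef: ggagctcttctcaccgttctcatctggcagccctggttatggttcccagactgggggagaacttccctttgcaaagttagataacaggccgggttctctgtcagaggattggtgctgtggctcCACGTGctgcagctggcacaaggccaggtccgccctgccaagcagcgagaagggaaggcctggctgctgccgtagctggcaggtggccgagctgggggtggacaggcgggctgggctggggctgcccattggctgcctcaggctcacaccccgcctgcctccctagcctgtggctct
Letters were matched exactly on both strands. Of 32851 windows of the same length over all genes, 11.9% held the CDX site, 0.938% the D box and 7.15% the E box. Per3 held 2 D boxes, Tef held 1 E box in each of its 2 windows, and Slc51a, the basolateral bile acid exporter, held 3 E boxes. A match says only that the letters are there.

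Depth was close in both libraries, with a median of 1583.5 UMIs in KO members and 1713.5 UMIs in WT members. Members summed to 909050 UMIs in KO and 600462 UMIs in WT. Mitochondrial RNA made up 0.270% of member UMIs in KO and 0.130% in WT, a ratio of 2.08 (1.92 to 2.26). Barcode sequences found in both libraries numbered 28, and 0 of them were members in both. Likely doublets were kept in the main values and made up 8.94% of KO members and 5.48% of WT members. Pink1, the deleted gene, had 7 counts in KO members and 5 in WT members, too few to check the labels there, and its KO to WT ratio over the other epithelial nuclei was 0.508 (0.381 to 0.674).

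Members carried the markers of colonocytes. The summed level of 9 colonocyte markers was 3973 CPM (a gene's UMIs scaled to the same total of nuclear-encoded UMIs in each class) in KO members and 3065 CPM in WT members, against 12007 CPM in KO and 9213 CPM in WT Car4 colonocytes and 5554 CPM in KO and 4679 CPM in WT Slc9a3, Krt20 and Guca2a colonocytes. The other epithelium, all epithelial nuclei that were not members, had 1673 CPM in KO and 1230 CPM in WT. It includes nuclei of those other colonocyte classes. The rule limits 3 of the 9 markers, Car4, Aqp8 and Slc37a2, in members. The 6 pan-epithelial genes Epcam, Cdh1, Krt8, Vil1, Cdx2 and Lgals4 summed to 3178 CPM in KO members and 2091 CPM in WT members. Sums were 3536 CPM in KO and 2296 CPM in WT other epithelium, and 965 CPM in KO and 784 CPM in WT non-epithelial nuclei. Vil1 and Cdx2 were higher in members than in the other epithelium in both libraries, and Epcam, Cdh1, Krt8 and Lgals4 lower. The other epithelium was chosen by a UMI of these genes apart from Lgals4, so its sum is in part fixed. Goblet markers summed to 742 CPM in KO members and 750 CPM in WT members, against 8811 CPM in the other KO epithelium and 8179 CPM in the other WT epithelium. The rule limits Muc2, which made up 433 CPM of the sum in KO members and 505 CPM in WT members, so the low sum is in part fixed by the choice. Fcgbp, a goblet marker the rule did not use, stood at 93.8 CPM in KO members and 95.1 CPM in WT members, against 1554 CPM in the other KO epithelium and 1596 CPM in the other WT epithelium. Fibroblast markers summed to 9.93 CPM in KO members and 6.67 CPM in WT members, where 1 of the 4 was at 0. Of 3 endothelial markers, none was at 0 in KO members and all 3 were at 0 in WT members. Of 5 immune markers, 4 were at 0 in KO members, while in WT members they summed to 10.0 CPM.

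The bile acid transporter Slc10a2 (ENSMUSG00000023073, chr8:5083219-5105351) was detected in 52.3% of KO members and 57.1% of WT members, at 732 CPM in KO members and 695 CPM in WT members. Free RNA sets a floor for such shares: in nuclei of stroma, muscle, blood and vessels the gene was found in 1.62% of KO and 0.449% of WT non-epithelial nuclei, at median depths of 1508 UMIs and 1464.5 UMIs. For the other 5 genes the share in non-epithelial nuclei lay between 1.15% and 2.44% in KO and between 0.225% and 1.57% in WT. Slc30a10 (chr1:185454848-185468762) was the choosing gene detected most often, in 66.5% of KO members and 68.7% of WT members. The sulfate transporter Slc13a1 (chr6:24088283-24168092) stood at 513 CPM in KO members and 767 CPM in WT members, where 1 nucleus held 35 of the 460 counts. The kinase Prkg2 (chr5:98929773-99037351) was found in 50.6% of KO members and 67.1% of WT members, and Tmigd1 (chr11:76902159-76916587) in 42.2% of KO members and 32.9% of WT members. Abca12 (chr1:71242276-71414910) was detected in 45.2% of KO members and 46.8% of WT members. All 6 genes occurred together in 6 nuclei of each library, and 43.3% of KO members and 35.5% of WT members had only 2 of them.

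**Figure D1:**
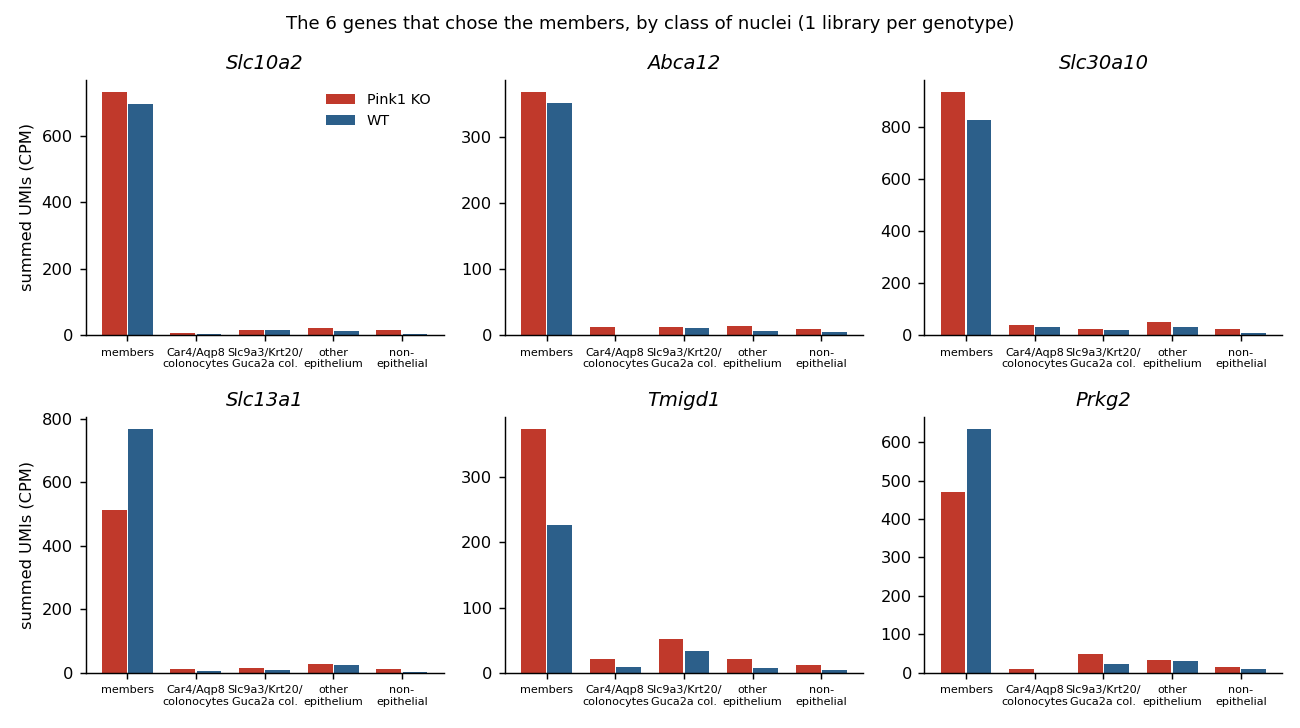
Level of each of the 6 genes that chose the members (CPM, linear axis) in members and in 4 other classes of nuclei, with Pink1 KO left of WT and 1 library per genotype. Member bars stand above the others because the genes were used to choose them, as for Slc10a2 at 732 CPM in KO members and 695 CPM in WT members.

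The threshold runs through a series of values without a gap. Nuclei just inside it, with exactly 2 UMIs over the 6 genes, numbered 92 in KO and 45 in WT. Nuclei just outside it, with exactly 1 such UMI, numbered 454 in KO and 287 in WT, and those with 2 or more UMIs of a single gene numbered 105 in KO and 65 in WT. The median member had 5 such UMIs in KO and 6 in WT, and the highest had 24 in KO and 47 in WT. Members with 5 or more made up 52.7% in KO and 62.6% in WT.

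Members were 4.33% of kept nuclei in KO (3.98 to 4.71) and 3.49% in WT (3.12 to 3.89), a ratio of 1.24 (1.08 to 1.43). Of epithelial nuclei they were 5.67% in KO and 4.67% in WT, a ratio of 1.21 (1.04 to 1.42). Colonocytes with Car4 and Aqp8 (at least 2 UMIs over Slc37a2, Atp12a, Car4 and Aqp8 from at least 2 of them, and at most 1 over the choosing genes) were 2.40% of kept nuclei in KO and 2.68% in WT, a ratio of 0.895 (0.751 to 1.07). Colonocytes with at least 2 UMIs over Slc9a3, Krt20 and Guca2a, within the same kind of limits, were 3.27% in KO and 1.36% in WT, a ratio of 2.40 (1.95 to 2.97). These ratios compare 2 libraries and have no replicate check. Members with 2 UMIs over the choosing genes numbered 92 in KO and 45 in WT, and those with 3 or 4 numbered 157 and 71. Members with 5 or more numbered 277 in KO and 194 in WT. Relative to the 12146 and 8888 kept nuclei, the excess in KO was thus largest below 5 such UMIs. No share ratio was computed for these bins.

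**Figure D2:**
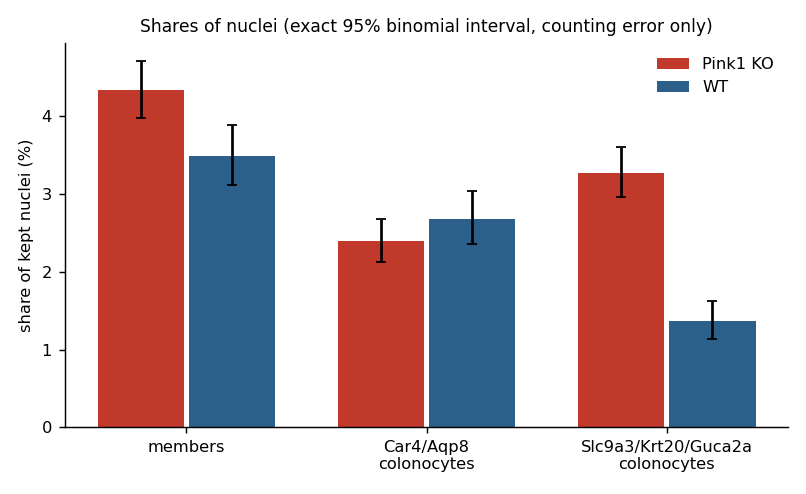
Share of kept nuclei (%) that were members, Car4 and Aqp8 colonocytes, or Slc9a3, Krt20 and Guca2a colonocytes, with Pink1 KO left of WT and error bars for the exact 95% binomial interval of counting error. Members were 4.33% in KO and 3.49% in WT.

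Members were also set against Car4 and Aqp8 colonocytes of the same library. Of 3785 genes with enough counts in each library, 183 were at least 2-fold higher in members in both libraries (4.83%) and 163 were at least 2-fold lower in both (4.31%). With median of ratios scaling the same counts were 132 higher and 221 lower. The median gene stood 0.16 higher on the log2 scale in KO members and 0.18 higher in WT members. Both kinds of nuclei were defined by their expression, so these values describe how they differ.

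Homeobox and T-box genes, which set position along the body axis, stood on both sides. Of 10 measured genes in the list for position along the colon, 5 were at least 2-fold higher in members in both libraries and 3 at least 2-fold lower. Hoxb5 had 315 CPM in KO members against 28.8 CPM in KO Car4 colonocytes, and 367 CPM in WT members against 18.1 CPM in WT Car4 colonocytes, with ratios of 11 (6.73 to 19.1) in KO and 20.2 (10.5 to 44.8) in WT. Hoxb4 had ratios of 8.08 (5.37 to 12.7) in KO and 38.4 (16.2 to 119) in WT, and Hoxb6 had ratios of 5.59 in KO and 9.69 in WT. The zinc finger factor Osr2 had 243 counts in KO members against 9 in KO Car4 colonocytes, and 144 in WT members against 1 in WT Car4 colonocytes. The T-box repressor Tbx3 had 93 counts in KO members against 11 in KO Car4 colonocytes, and 66 in WT members against 1 in WT Car4 colonocytes. The lower genes were Hoxa5, with ratios of 0.34 in KO and 0.282 in WT, Hoxa9, with ratios of 0.362 (0.224 to 0.576) in KO and 0.27 (0.143 to 0.483) in WT, and Hoxd11, which had 5 counts in KO members against 71 in KO Car4 colonocytes, and 7 in WT members against 91 in WT Car4 colonocytes. Between the libraries, 0 of 8 measured genes of this list passed 1.5-fold in members: Hoxb4 stood at 342 CPM in KO members and 387 CPM in WT members, and Hoxb5 at 315 CPM in KO members and 367 CPM in WT members.

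Of 8 measured bile acid genes, 1 was at least 2-fold higher in members in both libraries and 0 were lower, beside 4.83% of all genes higher. That gene was the bile acid receptor: Nr1h4 had 362 CPM in KO members against 93.1 CPM in KO Car4 colonocytes, and 267 CPM in WT members against 62.5 CPM in WT Car4 colonocytes, with ratios of 3.89 (2.91 to 5.27) in KO and 4.27 (2.89 to 6.49) in WT. The exporter subunit Slc51a had 146 counts in KO members against 4 in KO Car4 colonocytes, and 46 in WT members against 2 in WT Car4 colonocytes, with ratios of 23.8 (9.09 to 88.5) in KO and 19 (4.98 to 162) in WT, though it was under the count limit for the list. Fabp6, the ileal bile acid binding protein, had 1 count in KO members and 0 in WT members, and Fgf15, the hormone that FXR induces in the ileum, had 0 counts in members of both libraries. A floor of 3 counts corresponds to 3.31 CPM in KO members and 5.00 CPM in WT members.

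The 12 genes with the highest bounds of the ratio to Car4 colonocytes held transporters and enzymes. The phosphate and urate transporter Slc17a4 was higher at 6.1-fold in KO and 14-fold in WT, and the sodium-calcium exchanger Slc8a1 at 5.26-fold in KO and 11-fold in WT. Of 14 measured digestive and drug enzymes, 5 were at least 2-fold higher in members in both libraries and 1 lower, and the carboxylesterase Ces1f was among the higher ones at 8.36-fold in KO and 13.1-fold in WT. Of enzymes outside that list, the flavin monooxygenase Fmo5 was higher at 5.87-fold in KO and 6.62-fold in WT, the aldo-keto reductase Akr1c19 at 6.46-fold in KO and 5.25-fold in WT, and the glucuronosyltransferase Ugt1a6a at 5.87-fold in KO and 10.6-fold in WT. The lectin-like Clec2e was higher at 11.7-fold in KO and 32.7-fold in WT, the ubiquitin ligase Rnf186 at 12.6-fold in KO and 9.19-fold in WT, and the glycosyltransferase B4galnt2 at 5.79-fold in KO and 14.7-fold in WT. The nuclear receptor coactivator Ncoa7 had 636 counts in KO members against 66 in KO Car4 colonocytes, and 204 in WT members against 4 in WT Car4 colonocytes, with ratios of 6.28 (4.87 to 8.22) in KO and 42.2 (16.2 to 156) in WT. Outside those 12 genes, the lipid-sensing receptor Pparg was higher at 4.07-fold in KO and 11.9-fold in WT, and Isx, a homeobox repressor of carotenoid uptake, at 5.51-fold in KO and 22.8-fold in WT.

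Several further genes were named after their values were seen. They had few counts in 1 of the classes, so the 30% limit left them out of the 12 highest and 12 lowest. The smaller lower bound was 12.0 for Grin3a and 11.8 for Cubn, above the 6.86 of Clec2e. Grin3a, a subunit of glutamate receptors of the NMDA type, had 319 counts in KO members against 9 in KO Car4 colonocytes, and 400 in WT members against 1 in WT Car4 colonocytes. Cubn, the receptor for vitamin B12 uptake in the ileum, had 74 counts in KO members against 0 in KO Car4 colonocytes, and 82 in WT members against 1 in WT Car4 colonocytes. Hoxb3 had ratios of 7.82 in KO and 30.1 in WT, the transglutaminase Tgm3 ratios of 0.0304 in KO and 0.0247 in WT, and the peptide transporter Slc15a1 ratios of 0.0324 in KO and 0.0231 in WT. Grin3a, Cubn and Hoxb3 were thus higher in members, and Tgm3 and Slc15a1 lower.

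Low in members were genes of the Car4 colonocyte. The ion channel Trpv3 had 4 counts in KO members against 151 in KO Car4 colonocytes, and 5 in WT members against 235 in WT Car4 colonocytes. Saa1, the acute phase protein serum amyloid A, had ratios of 0.0588 (0.0485 to 0.0707) in KO and 0.0451 (0.0303 to 0.0647) in WT. The chloride channel Ano1 had ratios of 0.0869 in KO and 0.0269 in WT, the sodium channel subunit Scnn1a 0.0994 in KO and 0.0796 in WT, the oxygen-regulated factor Hif1a 0.125 in KO and 0.107 in WT and the peroxidase Prdx6 0.163 in KO and 0.107 in WT. The other 6 of the 12 lowest were Ggh, Sycn, Gpr137b, Anxa3, S100a14 and Cyp2d12. Slc26a3, the chloride-bicarbonate exchanger of the colon surface, had ratios of 0.129 in KO and 0.227 in WT.

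Set against the Slc9a3, Krt20 and Guca2a colonocytes, 101 of 3307 genes (3.05%) were at least 2-fold higher in members in both libraries and 74 (2.24%) at least 2-fold lower. Clec2e was higher at 14-fold in KO and 10.1-fold in WT, Fmo5 at 5.43-fold in KO and 8.95-fold in WT, Osr2 at 6.75-fold in KO and 4.96-fold in WT and the transcription factor Maf at 5.76-fold in KO and 7.72-fold in WT.

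**Figure D3:**
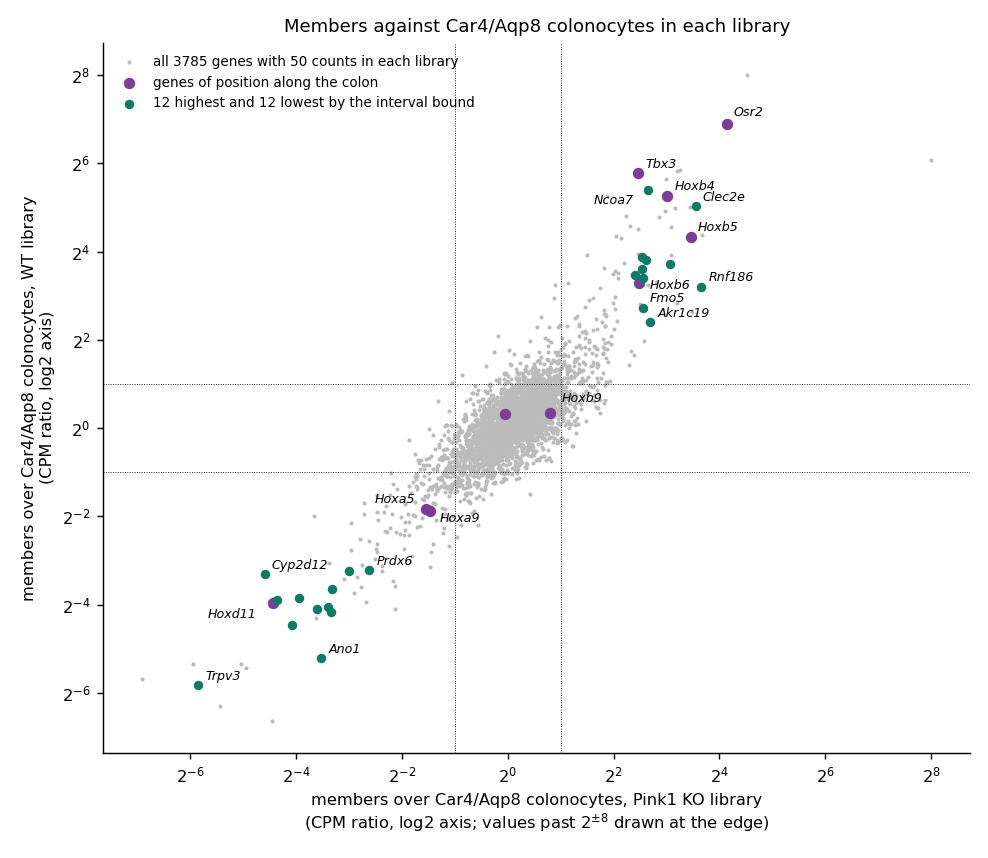
Ratio of members to Car4 and Aqp8 colonocytes for 3785 genes in the Pink1 KO library (horizontal) and the WT library (vertical), both on log2 axes, with 2-fold lines dotted. Hoxb4, Hoxb5, Hoxb6, Osr2 and Tbx3 lie high in both libraries, and Hoxa5, Hoxa9 and Hoxd11 low in both.

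Within the members, the levels of some listed genes moved with the number of UMIs over the choosing genes. Of 280 genes from the lists with at least 50 counts, 24 were higher and 12 lower in members with 5 or more such UMIs than in members with 2, in both libraries, with each counting interval on 1 side of 1. The other 244 did neither. Of the 24, 8 were at least 2-fold higher in both libraries, and of the 12, 5 were at least 2-fold lower. These counts cover listed genes only. The water channel Aqp4 was on the lower side, with 454, 181 and 61.2 CPM in KO members and 206, 267 and 80.1 CPM in WT members that had 2, 3 or 4, and 5 or more such UMIs. In the same order, the carbonic anhydrase Car2 had 250.1, 161 and 103 CPM in KO members and 375, 219 and 146 CPM in WT members, and the sulfotransferase Sult1a1 191, 92.8 and 41.4 CPM in KO members and 206, 47.7 and 67.9 CPM in WT members. On the higher side, the cytochrome P450 Cyp2d34 had 237, 331 and 501 CPM in KO members and 72.7, 191 and 361 CPM in WT members. The iron importer Slc11a2 had 1, 9 and 40 counts in KO members and 1, 3 and 43 counts in WT members, and the disaccharidase Sis had 0, 9 and 25 counts in KO members and 1, 5 and 81 counts in WT members. Median depth in the 3 bins was 1548.5, 1438 and 1631 UMIs in KO members and 1673, 1305 and 1978 UMIs in WT members. Since the bins were drawn on genes of the same nuclei, these values are a description.

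**Figure D4:**
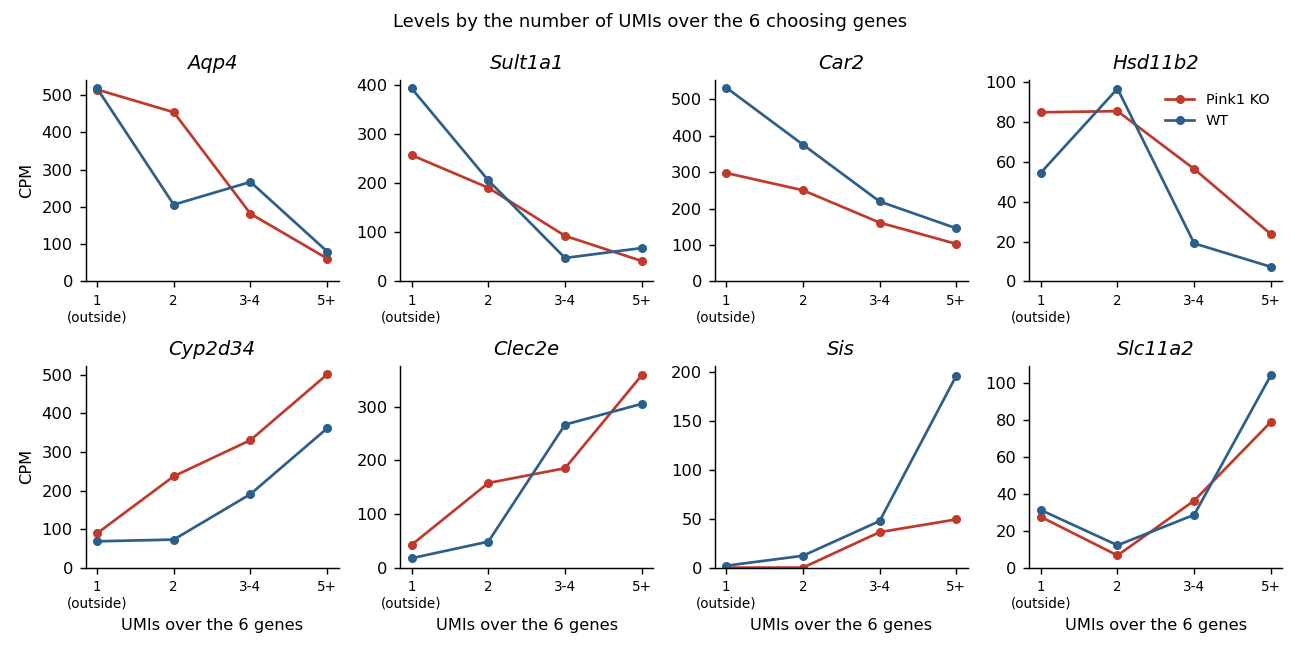
Level (CPM, linear axis) of 8 genes in nuclei with 1 UMI over the 6 choosing genes, which lie outside the members, and in members with 2, with 3 or 4, and with 5 or more, for each library. Aqp4 is lowest at 5 or more, with 61.2 CPM in KO and 80.1 CPM in WT, while Slc11a2 and Sis are highest there.

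Between the libraries, 379 of 4805 genes with at least 50 counts in members were at least 1.5-fold higher in KO members (7.89%) and 431 were at least 1.5-fold lower (8.97%), with a median log2 ratio of -0.04. With median of ratios scaling 441 were higher and 375 lower, and with the top nucleus of each gene left out 457 were higher and 418 lower, so the balance between directions depended on these settings. Sums over a class do not separate the share of nuclei with a transcript from its level per nucleus. The share of nuclei with a UMI of Fos was 40.7% in KO members and 12.3% in WT members. For Edn1 the share was 2.47% in KO members and 14.5% in WT members. The percentages over all genes are the background for each list count below. Immediate early genes, the fast transcriptional response to growth factors and stress, had 10 of 17 measured genes at least 1.5-fold higher in KO members and 0 lower, with a median log2 ratio of 1.09. The transcription factor Fos had 398 counts (439 CPM) in KO members and 58 counts (96.7 CPM) in WT members, a ratio of 4.54 (3.44 to 6.09). Egr1, another such factor, had 357 CPM in KO members and 78.4 CPM in WT members, a ratio of 4.56 (3.35 to 6.33). Among EGF family ligands, Areg had 229 CPM in KO members and 48.4 CPM in WT members, and Hbegf had 418 CPM in KO members and 172 CPM in WT members, so both were higher in KO members. The phosphatase Dusp6 and the RNA-binding protein Zfp36, feedback brakes of this response, had ratios of 4.1 (2.09 to 8.97) and 2.2 (1.69 to 2.88). Among the others, within 1.5-fold, the best counted were Klf6 at 1.45 (1.3 to 1.63), Fosl2 at 1.18 and Jun at 1.26.

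Fos and Egr1 were also higher in KO nuclei of other classes. The KO to WT ratio of Fos was 5.16 (4.16 to 6.44) in Car4 colonocytes, 2.87 in Slc9a3, Krt20 and Guca2a colonocytes, 7.6 in the other epithelium and 11.4 in non-epithelial nuclei. That of Egr1 was 7.12, 9.67, 38 (33.7 to 43) and 17.6 in the same order. With 10% free RNA subtracted the member ratio was 4.29 for Fos and 3.47 for Egr1. The mitochondrial share was also higher in KO members, at 0.270% against 0.130% in WT members, and its part in these values was not tested.

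Sgk1, a kinase that raises sodium uptake and responds to salt and steroids, was higher in KO members. It had 1054 counts (1163 CPM) in KO members and 109 counts (182 CPM) in WT members, a ratio of 6.4 (5.25 to 7.86). It was detected in 71.1% of KO members and 22.9% of WT members, against 20.3% of KO and 6.4% of WT non-epithelial nuclei, at median depths of 1508 UMIs and 1464.5 UMIs. The KO to WT ratio of Sgk1 was 7.58 (5.87 to 9.93) in Car4 colonocytes, 6.11 (4.34 to 8.85) in Slc9a3, Krt20 and Guca2a colonocytes and 4.19 (3.28 to 5.42) in non-epithelial nuclei. In the list for corticosteroid response, 5 of 12 measured genes were at least 1.5-fold higher in KO members and 2 lower, with a median log2 ratio of 0.49. Besides Sgk1, the higher ones were Fkbp5 at 1.55 (1.31 to 1.83), Klf9 at 1.63 (1.25 to 2.16), Errfi1 at 1.68 (1.41 to 2.00) and Hsd11b2, the enzyme that inactivates glucocorticoids, at 1.98 (1.04 to 4.05) over 39 counts in KO members and 13 in WT members. The mineralocorticoid receptor Nr3c2 was lower, at 363 CPM in KO members and 572 CPM in WT members, a ratio of 0.634 (0.544 to 0.74). The other lower gene was the metallothionein Mt1, at 0.57 (0.32 to 1.01).

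Clock genes lay on both sides. Of 10 measured, 3 were at least 1.5-fold higher in KO members and 5 lower, with a median log2 ratio of -0.33. Arntl (BMAL1), the activator of the loop, had 104 CPM in KO members and 48.4 CPM in WT members, a ratio of 2.14 (1.4 to 3.37), and the repressor Bhlhe40 had 339.7 CPM in KO members and 185 CPM in WT members. The third higher gene, Npas2, had a ratio of 1.54 (0.821 to 3.04). On the lower side, the D box activator Tef had 50.7 CPM in KO members and 160.1 CPM in WT members, a ratio of 0.317 (0.218 to 0.455). The clock repressor Per3 had 76.1 CPM in KO members and 182 CPM in WT members, a ratio of 0.419 (0.305 to 0.571), and Cry2, another repressor of the loop, had 50.7 CPM in KO members and 120.1 CPM in WT members. Nr1d1 and Nr1d2, nuclear receptors that repress Arntl, were lower too, with 35.3 CPM in KO members and 86.7 CPM in WT members for Nr1d1 and 178 CPM in KO members and 310.2 CPM in WT members for Nr1d2. Below 50 counts and named after their values were seen, Dbp had 4 counts in KO members and 17 in WT members, and Per1 had 29 counts in KO members and 4 in WT members. Cipc, a binding partner of the CLOCK protein named after its values were seen, had 423 counts in KO members and 545 in WT members, a ratio of 0.513 (0.451 to 0.584). Tef had a KO to WT ratio of 0.233 in Car4 colonocytes and 0.0783 in Slc9a3, Krt20 and Guca2a colonocytes, so it was lower in KO in all 3 kinds of colonocyte. The median of the list was 0.13 with a limit of 20 counts, so its sign depended on which genes were counted. The labels give no hour of collection.

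In the bile acid list, 2 of 9 measured genes were at least 1.5-fold higher in KO members and 1 lower, with a median log2 ratio of 0.03. The exporter subunit Slc51a had 161 CPM in KO members and 76.7 CPM in WT members, a ratio of 2.1 (1.5 to 2.99). Its partner Slc51b, below 50 counts, had 43 counts in KO members and 6 in WT members. The efflux pump Abcg2 had 249 CPM in KO members and 142 CPM in WT members, a ratio of 1.76 (1.36 to 2.28). Ugt2b34, a glucuronosyltransferase, was lower, with 109 CPM in KO members and 262 CPM in WT members, a ratio of 0.417 (0.321 to 0.54). Within 1.5-fold were the receptor Nr1h4 at 1.36 (1.12 to 1.65), the cytochrome P450 Cyp3a13 at 1.02 and the xenobiotic pump Abcb1a at 0.712 (0.65 to 0.78).

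Among metal transport genes, 0 of 10 measured were at least 1.5-fold higher in KO members and 2 lower, Mt1 and Slc40a1. Of all measured genes, 7.89% were higher and 8.97% lower. Ferroportin, Slc40a1, the cellular iron exporter, had 369 counts (407 CPM) in KO members and 511 counts (852 CPM) in WT members, a ratio of 0.478 (0.417 to 0.547). Within members with 5 or more UMIs over the choosing genes Slc40a1 stood at 456 CPM in KO and 929 CPM in WT, and in Car4 colonocytes its KO to WT ratio was 0.404 (0.338 to 0.481). It was thus lower in KO in both kinds of nuclei.

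Brush border genes had 4 of 20 measured at least 1.5-fold higher in KO members and 0 lower, with a median log2 ratio of 0.30. The adhesion molecule Ceacam1 had 2876 CPM in KO members and 1254 CPM in WT members, a ratio of 2.29 (2.11 to 2.49). The others were the cadherin Cdhr2 at 1.58 (1.21 to 2.08), the membrane mucin Muc13 at 1.57 (1.39 to 1.78) and the membrane linker Ezr at 1.51 (1.2 to 1.9). Of the well-counted genes within 1.5-fold, Myo15b was at 1.23, Eps8 at 1.15 and Ceacam20 at 1.25.

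Sodium, potassium and water genes had 3 of 14 measured at least 1.5-fold higher in KO members and 0 lower, beside 7.89% and 8.97% of all genes. Slc9a3, the apical sodium-proton exchanger, had 1285 CPM in KO members and 682 CPM in WT members, a ratio of 1.88 (1.68 to 2.11). It was higher in KO in other classes too, at 763 CPM in KO and 276 CPM in WT Car4 colonocytes. In non-epithelial nuclei Slc9a3 had 73.2 CPM in KO and 15.6 CPM in WT. The potassium channel Kcnk5 was at 1.8 (1.07 to 3.12). The sulfate and anion list had 1 of 10 higher, Clca4a, at 2.74 (2.00 to 3.82), and 0 lower. In the guanylin list of 4 measured genes, the cGMP phosphodiesterase Pde9a was higher at 2.6 (1.94 to 3.54) and Pde5a lower at 0.643 (0.504 to 0.819).

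Defence genes had 5 of 11 measured at least 1.5-fold higher in KO members and 0 lower, with a median log2 ratio of 0.52. Duox2, the oxidase that makes hydrogen peroxide at the mucosal surface, had 217 CPM in KO members and 58.4 CPM in WT members, a ratio of 3.72 (2.59 to 5.5). Its KO to WT ratio was 4.7 (2.9 to 7.99) in Car4 colonocytes and 0.666 (0.309 to 1.52) in Slc9a3, Krt20 and Guca2a colonocytes, and the difference between classes was not tested. The antibacterial lectin Reg3b had 157 CPM in KO members and 48.4 CPM in WT members, and Saa1 had 136 CPM in KO members and 51.7 CPM in WT members. The others were Ly6m, with 53 counts in KO members and 1 in WT members, and Saa3, at 1.57 (0.959 to 2.65). Within 1.5-fold were the class I genes H2-K1 at 1.12 and H2-D1 at 1.44, and the interferon factor Irf1 at 0.729.

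**Figure D5:**
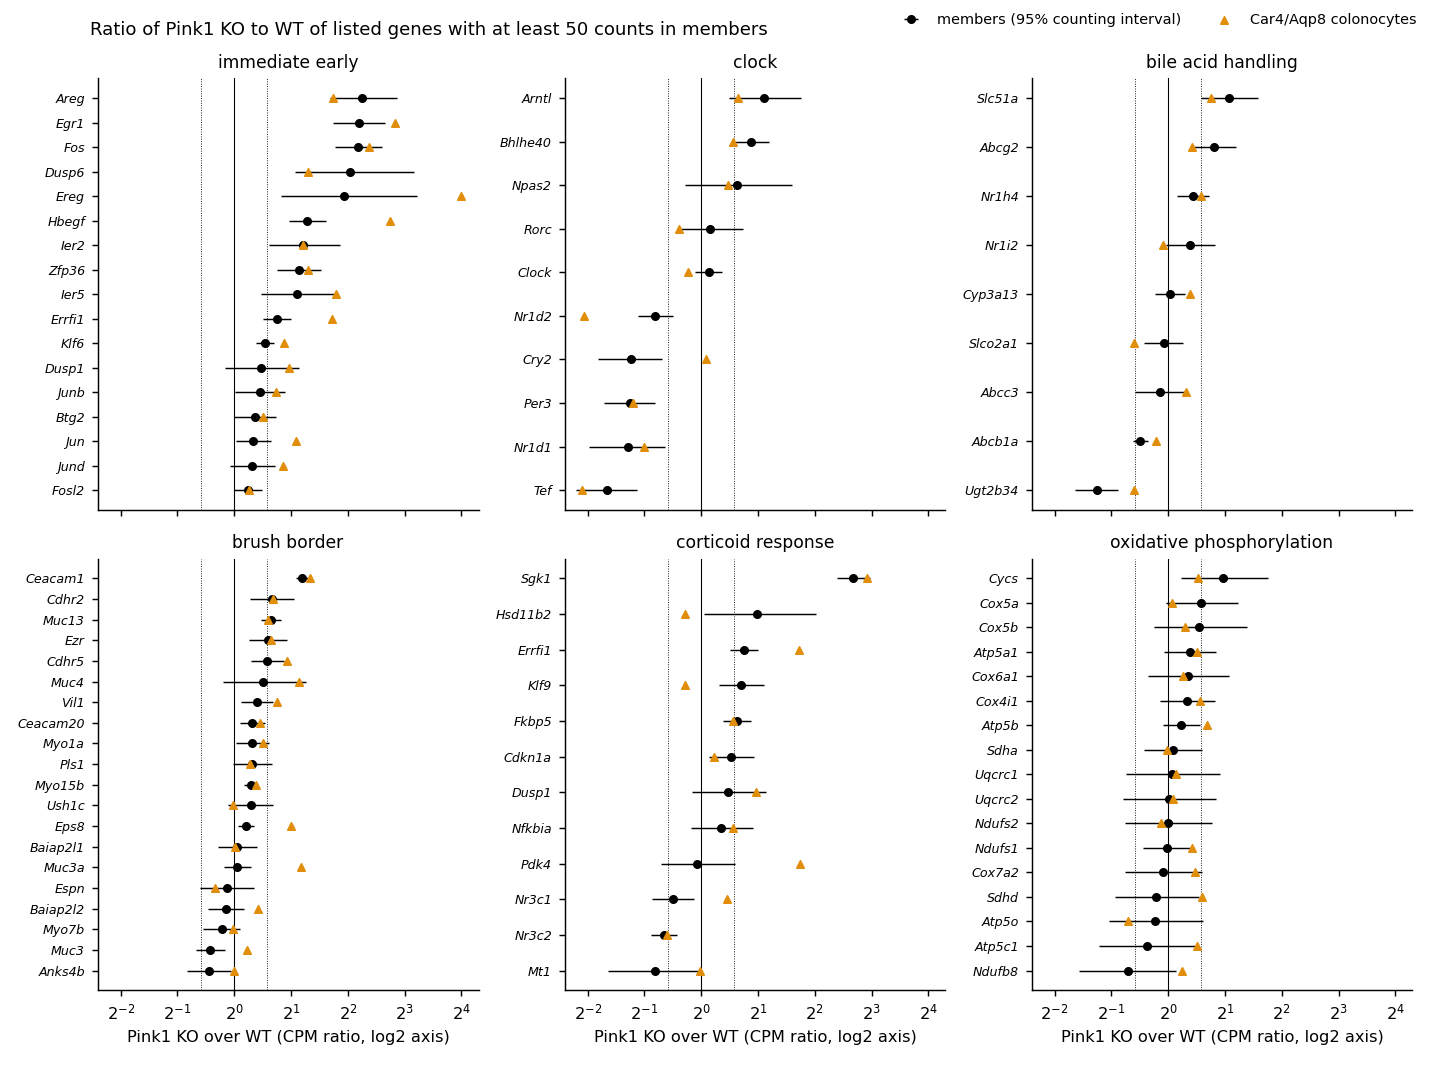
Ratio of Pink1 KO to WT (log2 axis) for the measured genes of 6 lists: black points with 95% counting intervals are members, orange triangles are Car4 and Aqp8 colonocytes, and dotted lines mark 1.5-fold. Areg, Egr1 and Fos lie highest among immediate early genes in members, while Tef, Nr1d1, Per3 and Nr1d2 lie to the left of 1 in both classes.

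Transcription factors of differentiation had 5 of 22 measured at least 1.5-fold higher in KO members and 2 lower. Id1 and Id3, inhibitors of basic helix-loop-helix factors, were at 3.51 (2.68 to 4.66) and 1.96 (1.4 to 2.78), and Ets2, Elf3 and Cdx1 at 2.13, 1.72 and 1.87. Id1 was also higher in KO Car4 colonocytes, at 2.12 (1.76 to 2.58), and in KO non-epithelial nuclei, at 2.73 (2.26 to 3.31). The lower ones were Hnf4g, at 0.492 (0.344 to 0.700), and Nr3c2. Within 1.5-fold were Tfcp2l1 at 1.12, Klf4 at 1.2 and Klf5 at 0.701.

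Other genes stood at the ends of the range between libraries. Edn1, the vasoactive peptide endothelin, had 21 CPM in KO members and 105 CPM in WT members, a ratio of 0.199 (0.113 to 0.338). Sis, the sucrase-isomaltase of the brush border, had 34 counts in KO members and 87 in WT members, a ratio of 0.259 (0.169 to 0.388), and within members with 5 or more UMIs over the choosing genes it stood at 49.3 CPM in KO and 196 CPM in WT. The LIM protein Lmo4 was at 0.22 (0.13 to 0.362), butyrylcholinesterase Bche at 0.302 (0.193 to 0.466), and Akr1c19 at 0.435 (0.368 to 0.514). Kctd12, Cited2, Tppp and Slc35a5 were also among the 12 lowest, at 0.268, 0.302, 0.363 and 0.305. Edn1, Lmo4, Akr1c19 and Cited2 were lower in KO Car4 colonocytes too, at 0.389, 0.420, 0.354 and 0.261. For Bche, Kctd12, Tppp and Slc35a5 the interval in Car4 colonocytes included 1, with Tppp at 1.53. In the other epithelium Bche, Tppp and Slc35a5 were lower in KO, at 0.67, 0.681 and 0.529, and the interval of Kctd12 included 1. Sis had 0 counts in KO and 1 in WT Car4 colonocytes. Among the 12 highest were the calcium-binding S100g at 5.07 (2.52 to 11.6), the kinase Pim3 at 4.58 (2.48 to 9.21), the histone genes H3f3b and Hist1h1c at 2.92 and 3.42, Fam43a at 3.66 and the actin gene Actb at 2.76. H3f3b, Hist1h1c and Actb were also higher in KO Car4 colonocytes, at 4.00, 2.41 and 1.73. In non-epithelial nuclei these 3 had KO to WT ratios of 2.61, 1.82 and 1.44. For S100g, Pim3 and Fam43a the interval in Car4 colonocytes included 1. Counts there were few, with 5 in KO and 2 in WT for S100g and 8 in KO and 2 in WT for Fam43a. In the other epithelium these genes were higher in KO too. S100g was at 2.66 (1.66 to 4.43) and Fam43a at 3.22 (2.29 to 4.61), and Pim3 had an interval of 2.77 to 3.25. In non-epithelial nuclei Pim3 was at 2.36 (1.74 to 3.27), and the intervals of S100g and Fam43a included 1.

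Counts were taken in the same way for the remaining lists. Over all measured genes 7.89% were at least 1.5-fold higher and 8.97% lower. List counts near those shares are not read as results about the list. Nuclear genes of oxidative phosphorylation had 1 of 17 measured higher, Cycs at 1.95 (1.17 to 3.37), and 1 lower, Ndufb8 at 0.611 (0.336 to 1.11), with a median log2 ratio of 0.06. Mitophagy and mitochondrial quality genes had 2 of 14 higher, Ppargc1b at 1.74 (1.25 to 2.45) and Mfn2 at 1.54 (0.969 to 2.52), and 1 lower, the mitophagy receptor Bnip3l at 0.448 (0.292 to 0.681). Tight junction genes had 1 of 13 higher, Tjp3 at 1.51 (1.16 to 1.97), and 0 lower. Fatty acid genes had 2 of 14 higher, among them Acadl at 1.83 (1.16 to 2.99), and 0 lower. Lipid barrier genes had 2 of 11 higher and 1 lower, the ceramide synthase Cers5 at 0.423 (0.239 to 0.733). Hypoxia and glycolysis genes had 2 of 16 higher, Eno1 at 1.67 (1.14 to 2.5) and Hk2 at 1.6 (1.22 to 2.11), and 1 lower, Ankrd37 at 0.394 (0.23 to 0.661). Digestive and drug enzymes had 2 of 16 higher, Hsd11b2 and Ces2a, and 2 lower, Aldh1a1 at 0.568 (0.404 to 0.798) and Cyp2s1 at 0.63 (0.473 to 0.837). Paracrine genes had 3 of 8 higher, the ligands Areg, Ereg and Hbegf, and 3 lower, Edn1, the prostaglandin-degrading Hpgd at 0.597 (0.494 to 0.722) and the prostaglandin receptor Ptger4 at 0.593 (0.336 to 1.04).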

How the data were processed

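Nuclei of 1 Pink1 KO and 1 WT library were analysed. The authors deposited a matrix of UMI counts for each library, written by Cell Ranger 6.1.2 per its header. The submitters' processing notes name mm10 and GRCm38. Whether introns were counted or doublets taken out is not stated there. Barcodes were kept at 500 UMIs and 300 genes or more with at most 10% mitochondrial UMIs, and no barcode in either matrix had fewer than 500 UMIs. Of 32285 gene IDs, 32235 matched the GENCODE annotation that gave coordinates. For each class of nuclei in each library the counts were added up and scaled to CPM, leaving out mitochondrial genes, and log2 ratios had 0.5 added to each count. Shares carry Clopper-Pearson intervals and ratios exact conditional binomial intervals, for counting error only. No p-value was computed, since each genotype has 1 library.

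The members and the 20 gene lists were chosen with earlier results of these data known. Named were the 12 highest and 12 lowest genes of each of 2 comparisons by the interval bound nearest to 1, and list members past 1.5-fold with up to 3 well-counted others; genes with over 30% of a library's counts in 1 nucleus were left out. List members past 1.5-fold whose interval includes 1 were named after their values were seen, to complete a count. Choosing genes are in no list count and no count between classes; the KO to WT counts over all genes include them, with Tmigd1 (1.65) past 1.5-fold. Some genes that meet this rule are not reported here. Promoters came from RefSeq (GRCm38.p6), with 37 of 44 genes matched. Doublets were the highest Scrublet scores (scanpy 1.11.5), at 0.8% per 1000 nuclei. Ratios and intervals were checked on simulated counts drawn independently, as the intervals assume. That check does not cover counts that cluster within single nuclei.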

Additional observations from a re-analysis of the deposited data

Results flagged for a closer look

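For 2 genes the KO to WT ratio in members and in Car4 and Aqp8 colonocytes pointed opposite ways, with each counting interval on its own side of 1. The difference between the classes was not tested. Grin3a was at 0.528 (0.454 to 0.613) in members and at 7.56 (1.05 to 331) in Car4 and Aqp8 colonocytes, where it had 9 counts in KO and 1 in WT. Mgam, a maltase of the brush border, was at 0.619 (0.425 to 0.900) in members, with 58 counts in KO members and 62 in WT members, and at 1.68 (1.05 to 2.75) in Car4 and Aqp8 colonocytes, with 56 counts in KO and 28 in WT. Both genes were named after their values were seen.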

How the results depend on the processing

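Alternatives changed the barcode filter, the rule for members, doublet removal, depth, scaling, free RNA and the count limit. Under the alternatives run, the KO to WT ratio of the members' share stayed between 1.20 and 1.38. The strictest limit run on the choosing genes was 3 UMIs, which gave 1.20 (1.03 to 1.40), and no higher limit was run. A stricter rule allowed no UMI of the other colonocyte genes (Car4, Aqp8, Slc37a2, Atp12a, Gsdmc2, Gsdmc3 and Gsdmc4). Its share ratio had an interval of 0.993 to 1.45, which included 1. Under that rule 287 genes were at least 1.5-fold lower in KO members, of 3047 tested. A limit of 20 counts gave 833 higher and 1080 lower of 7547, and a 2-fold limit gave 105 higher and 73 lower. The median log2 ratio of the clock list was -0.98 with no UMI of the other colonocyte genes, -0.92 on nuclei thinned to 1000 UMIs, 0.01 with no limit on those genes and 0.13 with 20 counts, so its sign depended on the rule and on which genes were counted. The median of the guanylin list was 0.24 with no limit on those genes. The cause of these shifts was not tested. A single gene value was taken to stay where it lay within the counting interval of its main value, which is wide at low counts. By this measure 3426 single gene values stayed and 66 moved further. Summary values were judged by counting intervals or, for numbers of genes, by a limit of 1.5 times. Of these, 313 stayed and 8 moved further. With 0.5 added to each count, Duox2 stood at 6.63 and Arntl at 4.18 on thinned nuclei, and Reg3b at 1.53. With no UMI of the other colonocyte genes Pim3 stood at 8.15, Fam43a at 5.59 and Acadl at 3.51. Over all alternatives Clca4a ranged between 1.39 and 3.11, Hsd11b2 between 1.08 and 3.30, Saa1 between 2.43 and 4.45, Ly6m between 14.5 and 52.3 and Cers5 between 0.388 and 0.688. For 87 ratios of members to Car4 colonocytes over 44 genes, 56 moved by over 1.5 times under at least 1 of 12 alternatives and 0 changed direction. Among them Ncoa7 ranged between 24.9 and 132 in WT, Rnf186 between 11.2 and 51.2 in KO and Hoxb5 between 17.8 and 75.6 in WT. No paired analysis was possible because each genotype has 1 library. Depth limits genes near 50 counts, whose intervals often span 1.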
